A study of Ovis aries with 10 samples.

Results

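SRSF1 encodes a splicing factor of the SR protein family, and 1 of the 8721 circular RNAs (circRNAs) listed in these libraries was assigned to it by the file. It was found as every entry whose gene name is exactly SRSF1 and which is listed in a library of the series. The circRNA, novel_circ_0011146, was listed in all 10 libraries. The gene was chosen by its ratio of junction reads to non-junction reads in each library. This was set against the median ratio of that library's exonic circRNAs. The ratio and its difference between groups are therefore described here without a test. The difference in junction reads between ovariectomized and sham libraries was not part of the rule, but these reads are the upper part of the ratio, and the gene was proposed with earlier results of these data known.

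The samples came from female small-tailed Han sheep, 5 libraries after ovariectomy (OR-STH) and 5 after sham surgery (STH), in a study of estrogen and muscle growth. The labels name longissimus dorsi, a muscle of the back, and no age, genetic modification or batch. They also call the samples primary myoblasts and describe cell culture with estradiol, without a dose for any sample, so whether muscle or cultured cells were sequenced is not settled. Separate animals are not stated for the libraries, so each p reflects only how these libraries vary, which may be technical. Among hosts of circRNAs, 9 of 10 adult muscle fibre genes were present, including TTN and NEB, against 0 of 8 genes of myoblasts and dividing cells, PAX7, MYOD1 and MYOG among them. Of the muscle fibre genes, ACTA1, MYH1 and CKM each rested on 2 junction reads in 1 library. Hosts included 0 of 5 fibroblast, 0 of 4 immune and 3 of 5 endothelial genes. A circRNA host is not a measure of the cells present, and the share of hosts over all genes was not counted. In such bulk samples fewer cells of a type and less RNA per cell cannot be told apart.

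SR proteins carry RNA recognition domains and a tail rich in arginine and serine, through which they help the spliceosome to define exons. SRSF1 binds exonic enhancers, moves between nucleus and cytoplasm, and limits its own level through alternative splicing of its transcript. A circRNA arises when the spliceosome joins a downstream splice site back to an upstream one, and the read that crosses this joint is a junction read. Beside these the file lists non-junction reads for each circRNA, which the sources used here do not define. They were taken as reads at its ends that do not cross the joint, and such reads can come from linear RNA as well as from a circle.

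The entry of the SRSF1 circRNA lists an exon in a small part of its span. It lies on chromosome 11 from 8494451 to 8495842 on the minus strand, in the coordinates of the authors' file, whose genome build is not given in the sources used here. The span is 1392 bp, and the file lists 1 exon in it, from 8495724 to 8495842. That exon is 119 bp long, which is the whole spliced length given and 8.55% of the span. On the minus strand the exon sits at the 5′ end of the span. The 3′ end, 1273 bp further along, touches no exon listed for this entry.

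Such an end was not rare. Of 7926 exonic circRNAs, 1167 (14.7%) met a listed exon at the 5′ end only, and 5521 (69.7%) met one at both ends. Pooled over libraries, the median circRNA of the first kind had 34.5 junction reads per 1000 non-junction reads, against 42.3 for those with both ends at a listed exon. The SRSF1 circRNA had 15.2 pooled over libraries, below the lower quartile of 15.9 of its own kind. Of all exonic circRNAs, 23.2% had a lower pooled ratio. The pooled value of SRSF1 joins 18.0 to 56.7 in ovariectomized with 3.19 to 6.65 in sham libraries. Its place by that value therefore describes neither group.

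With 8568 non-junction reads in all, the SRSF1 circRNA ranked 329th of the 7926 exonic circRNAs by that count. By mean normalized junction reads it ranked 637th of all 8721 circRNAs, and 542nd of the 806 listed in every library.

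Junction reads of the SRSF1 circRNA were higher in every ovariectomized library than in any sham library. Counts were 23, 14, 15, 21 and 33 in ovariectomized replicates 1 to 5, against 3, 7, 6, 4 and 4 in sham replicates 1 to 5. The ovariectomized libraries thus held 106 of its 130 junction reads and the sham libraries 24. Library totals did not follow this pattern: they ran from 39045 to 67061 junction reads in ovariectomized and from 35731 to 49887 in sham libraries, and the groups overlapped.

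After scaling for library size, SRSF1 had 18.5 ± 3.77 normalized junction reads in ovariectomized and 5.35 ± 2.03 in sham libraries (SD, n = 5 each), a ratio of means of 3.46. The lowest ovariectomized library had 14.2 and the highest sham library 8.42, so the groups did not overlap. A two-sided exact permutation test of the means gave p = 0.00794, the smallest that 252 relabellings of 5 and 5 can give. After Benjamini-Hochberg adjustment over the 2 SRSF1 measures tested, junction and non-junction reads, that exact p was 0.0159. This adjustment does not cover the circRNAs from which the gene was picked, and these reads enter the ratio that chose it. The p is therefore given as a description and not as support for a difference. Of the 738 circRNAs in the fit across features, 4 (0.542%) had normalized junction reads that did not overlap with the ovariectomized group higher, and SRSF1 was one of them.

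**Figure D1:**
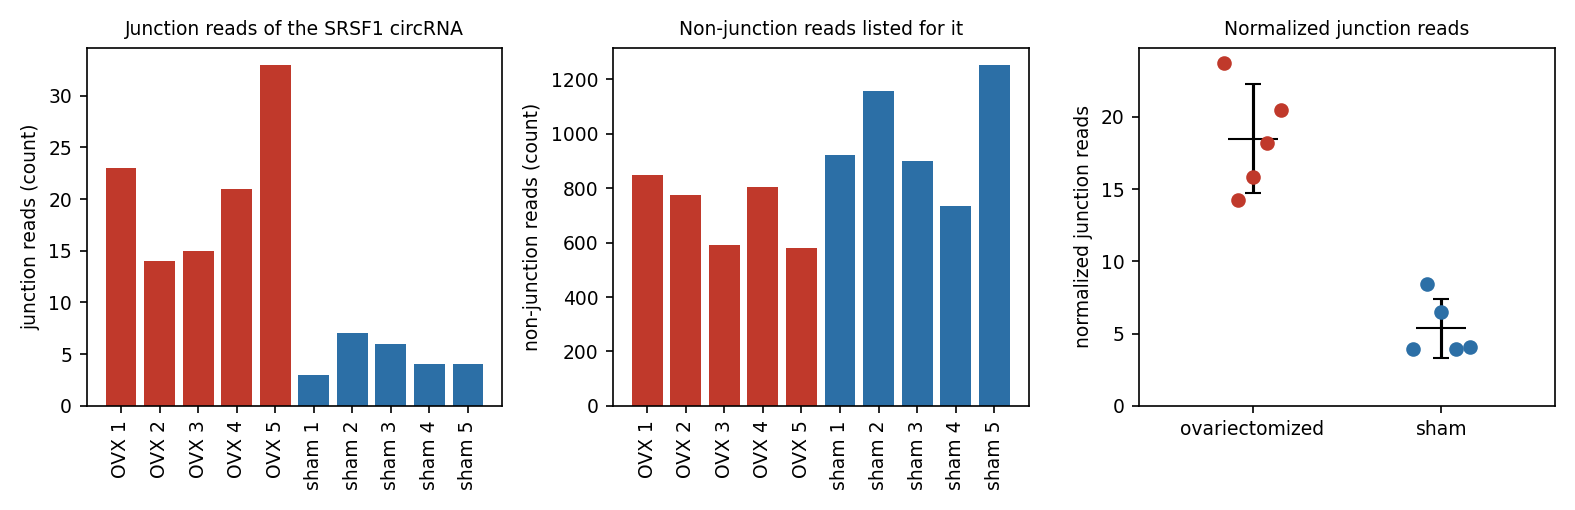
Reads of the SRSF1 circRNA in each library (OVX, ovariectomized), with ovariectomized libraries in red and sham libraries in blue. The left and middle panels show junction and non-junction read counts as bars, and the right panel shows normalized junction reads as points with mean and SD (n = 5 each). The 5 ovariectomized libraries lie between 14.2 and 23.8 normalized junction reads, all above the sham libraries.

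Set against all circRNAs, the difference did not pass the threshold. The limma voom fit put SRSF1 at a log2 fold change of 1.77 ± 0.85 (SE) for ovariectomized over sham. The limma adjusted p over 738 circRNAs was 0.781. In that fit 0 circRNAs passed an adjusted p of 0.05 and 42 (5.69%) had an unadjusted p under 0.05. SRSF1 ranked 45th by p but 11th by the size of an increase, and its standard error of 0.85 compares with a median of 0.42. It entered the fit through the ovariectomized group alone: 5 of 5 ovariectomized and 0 of 5 sham libraries reached the filter of 10 scaled reads. A circRNA let in this way had to be higher in that group, so its passing the filter is no support for the difference. As SRSF1 hosts a single circRNA, the sum over the gene is the same count. Its fit across 753 host genes gave 1.79 ± 0.85 on the log2 scale with a limma adjusted p of 0.760, where again 0 hosts passed and 45 (5.98%) had an unadjusted p under 0.05.

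In the authors' deposited table the SRSF1 circRNA has a mean of 18.1 normalized reads in ovariectomized and 5.13 in sham libraries. That table gives a log2 fold change of -1.83 for sham over ovariectomized, a p of 0.000243 and an adjusted p of 0.527. By p it ranks 4th of 8721 circRNAs in the authors' deposited table, 1 of which has an adjusted p under 0.05. Of the 8721, 118 have an unadjusted p under 0.05 there. The authors' values rest on the same junction reads, which enter the ratio that chose the gene. They are therefore no separate support for a difference.

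Non-junction reads of SRSF1 were not higher after ovariectomy. Non-junction counts of the SRSF1 circRNA were 847, 777, 590, 803 and 582 in ovariectomized replicates 1 to 5, against 921, 1158, 902, 734 and 1254 in sham replicates 1 to 5. The groups overlapped, and the higher counts were mostly those of sham libraries, the opposite order to the junction reads. Scaled to each library's non-junction reads over all exonic circRNAs, they were 775 ± 67.6 in ovariectomized and 926 ± 237 in sham libraries (SD, n = 5 each). The log2 difference was -0.22 with an exact permutation p of 0.294. Scaled instead by the factors of the junction reads it was -0.76 with an exact p of 0.0238, and without scaling -0.46 with an exact p of 0.0476. Non-junction reads of SRSF1 are the lower part of the ratio that chose the gene. Each p on them is therefore a description and not support for a difference or its absence. Over all exonic circRNAs together, ovariectomized libraries held 1556610 to 2113920 non-junction reads, against 1937711 to 2580127 in sham libraries, with an exact permutation p of 0.0714. Such a sum holds only circRNAs listed in the library, from 2387 exonic ones in sham replicate 1 to 3289 in ovariectomized replicate 5. The scaling by these sums thus depends also on which circRNAs were listed.

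The ratio of these counts is the quantity by which the gene was chosen, and its values are given as a description. Per 1000 non-junction reads, the SRSF1 circRNA had 27.2, 18.0, 25.4, 26.2 and 56.7 junction reads in ovariectomized replicates 1 to 5. In sham replicates 1 to 5 it had 3.26, 6.04, 6.65, 5.45 and 3.19. Each ovariectomized library lay above each sham library, and ovariectomized replicate 5 lay well above the other 4. As a share of both kinds of reads, junction reads made up 1.77% in ovariectomized replicate 2, the lowest of its group, with an exact (Clopper-Pearson) 95% interval of 0.971% to 2.95%. They made up 0.661% in sham replicate 3, the highest of its group, with an interval of 0.243% to 1.43%. These intervals cover counting error only.

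Against the other exonic circRNAs, SRSF1 was below the library's median in both groups. The median exonic circRNA had between 47.6 and 81.1 junction reads per 1000 non-junction reads in ovariectomized and between 36.5 and 50.0 in sham libraries. SRSF1 reached 37.8% to 69.9% of the library's median in ovariectomized and 6.72% to 16.5% in sham libraries. Among exonic circRNAs of a library it stood at percentiles 24.3 to 40.1 in ovariectomized libraries, against 4.24 to 9.36 in sham libraries. The median itself averaged 56.0 ± 14.1 in ovariectomized against 44.7 ± 5.19 in sham libraries (SD, n = 5 each; exact permutation p = 0.0476), and the groups overlapped. It was highest in ovariectomized replicate 5, at 81.1, where the other ovariectomized libraries had 47.6 to 53.0. As the median is part of the rule, this p is a description.

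**Figure D2:**
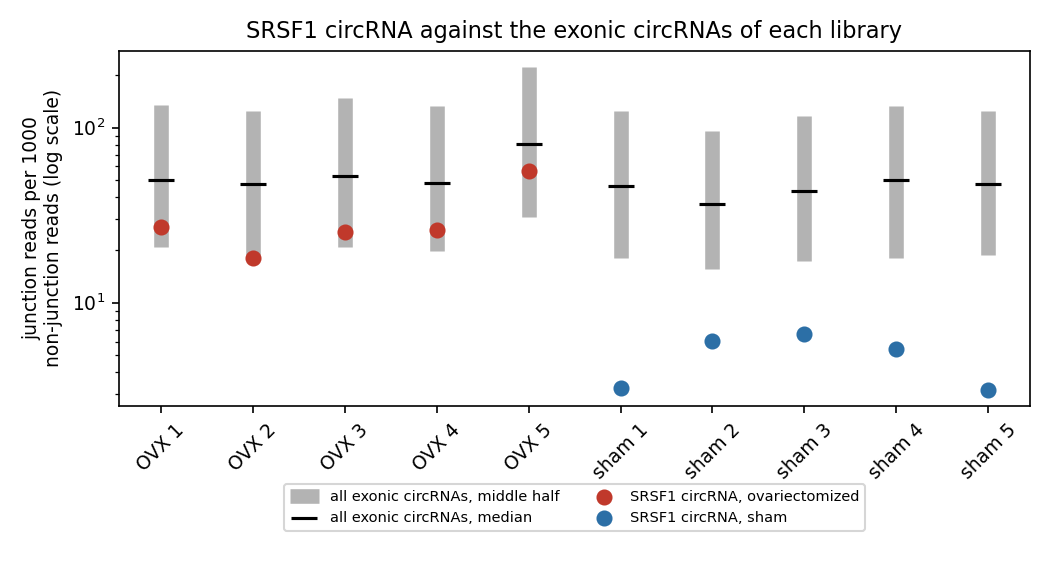
Junction reads per 1000 non-junction reads in each library, on a log scale. Points are the SRSF1 circRNA (red, ovariectomized, OVX; blue, sham), black ticks the median and grey bars the range between the quartiles of all exonic circRNAs of the library. The sham points lie between 3.19 and 6.65, below every grey bar, and the ovariectomized points between 18.0 and 56.7.

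The same ratio was also taken relative to that median. The log2 ratio minus the log2 of the library's exonic median was -0.95 ± 0.32 in ovariectomized and -3.24 ± 0.61 in sham libraries (SD, n = 5 each). The difference of 2.29 on the log2 scale corresponds to a 4.91-fold higher ratio. Without centring on the median the difference was 2.60. The ratio holds the same junction reads as the test of reads above and adds no separate evidence.

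Across circRNAs, the difference in ratio was estimated to place that of SRSF1 among others. The comparison planned for circRNAs with at least 10 junction reads in all libraries covered 283 circRNAs and not SRSF1, so exonic circRNAs listed in all 10 libraries were fitted, a choice made after seeing the data. Among these 773 circRNAs, the limma estimate for SRSF1 was 2.22 ± 0.45 (SE) on the log2 scale, the highest of the 773, and the median difference over all of them was 0.05. Groups that did not overlap, with ovariectomized libraries higher, were found for 6 circRNAs (0.776%), SRSF1 among them. As the ratio chose the gene, nothing is read from this place. Without single libraries the estimate for SRSF1 lay between 2.05 and 2.34.

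**Figure D3:**
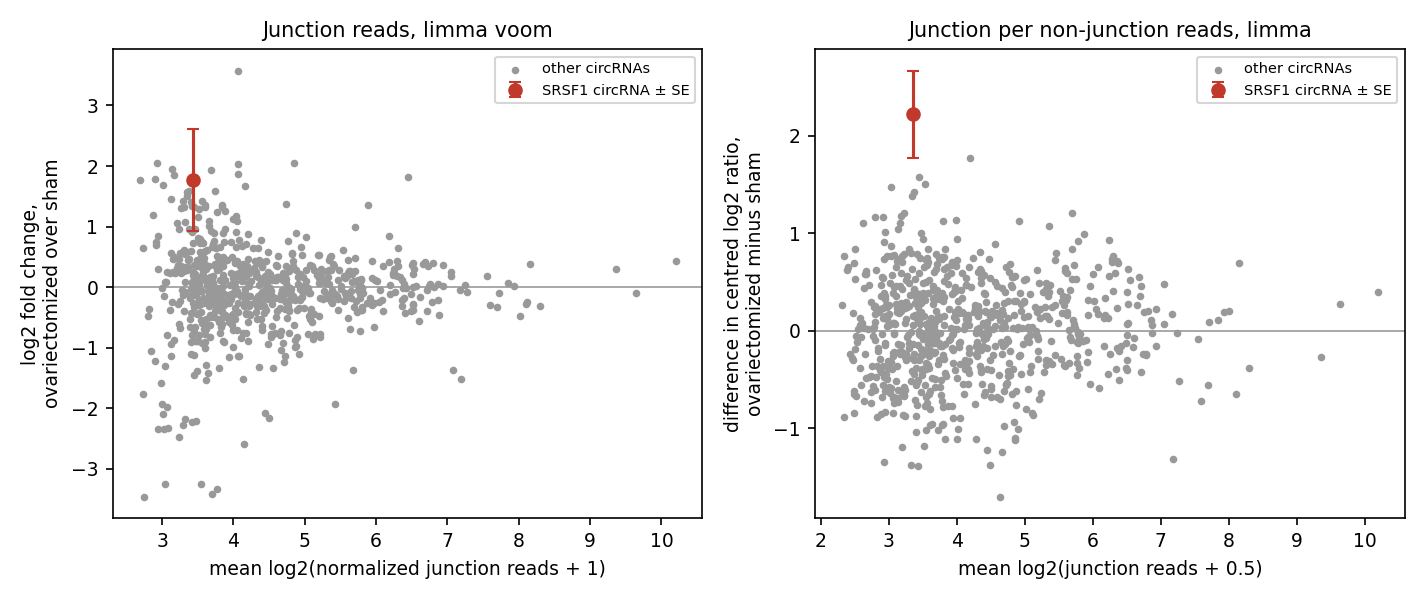
Differences between ovariectomized and sham libraries for all fitted circRNAs against their mean reads on a log2 scale. The left panel shows log2 fold changes of junction reads for 738 circRNAs, and the right panel differences in the centred log2 ratio for 773 exonic circRNAs, with SRSF1 in red ± SE. SRSF1 lies at 1.77 among other circRNAs of few reads on the left, and at 2.22 above all others on the right.

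Another circRNA shares the 5′ end and the 119 bp exon with that of SRSF1. It is novel_circ_0011145 (chromosome 11, 8492630 to 8495842, minus strand), which the file calls intergenic and gives no gene, so it is outside the rule and was looked at after its values were seen. Its span of 3213 bp holds the same block from 8495724 to 8495842 and a second block of 21 bp from 8492630 to 8492650. The file thus lists the same block as an exon of SRSF1 in one entry and as intergenic in the other.

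This second circRNA was also listed in all 10 libraries. Its junction reads numbered 14, 9, 6, 18 and 36 in ovariectomized replicates 1 to 5, and 9, 3, 5, 3 and 8 in sham replicates 1 to 5. Its groups overlapped, through the 9 and 6 reads of ovariectomized replicates 2 and 3 and the 9 and 8 of sham replicates 1 and 5. Normalized junction reads were 13.6 ± 6.19 in ovariectomized and 6.35 ± 3.60 in sham libraries (SD, n = 5 each), with an exact permutation p of 0.0476. It did not reach the filter of the main fit, and limma gave it 1.23 ± 0.72 (SE) on the log2 scale, adjusted p = 0.695, among the 2690 circRNAs that reached 2 reads in 5 libraries or more. Per 1000 non-junction reads it had 12.7 to 87.0 junction reads in ovariectomized and 3.50 to 13.3 in sham libraries. Its centred log2 ratio differed by 1.53.

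The relative use of the circles that start at this end varied between libraries. The SRSF1 entry took 59.2% ± 8.93 of the summed junction reads of both in ovariectomized and 48.0% ± 18.4 in sham libraries (SD, n = 5 each), with an exact permutation p of 0.278. The sham values rest on sums of 7 to 12 reads a library. The non-junction reads of both circRNAs can include the same reads at the shared end, so their ratios are not independent.

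**Figure D4:**
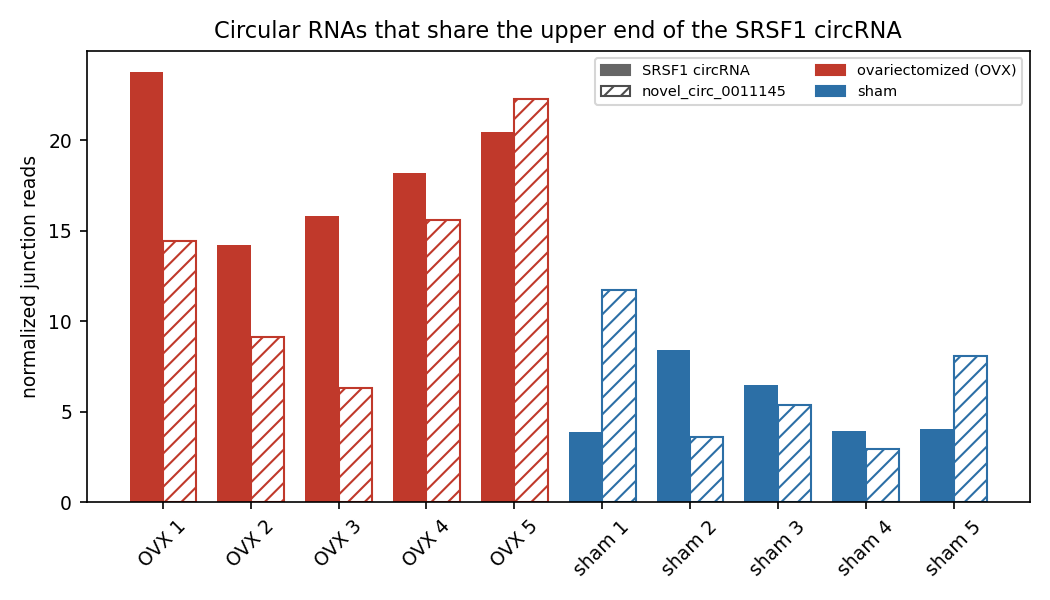
Normalized junction reads of the SRSF1 circRNA (filled bars) and of novel_circ_0011145, which shares its 5′ end (hatched bars), in each library (OVX, ovariectomized). Filled bars reach 14.2 to 23.8 in ovariectomized libraries, all above the 3.90 to 8.42 of sham libraries. Hatched bars overlap, with 6.33 to 22.3 in ovariectomized libraries, against 2.95 to 11.7 in sham libraries.

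Of the 14 SR protein genes listed, 2 hosted a circRNA, SRSF1 and SRSF11, a further member of the family. The share of hosts over all genes was not counted, so neither scarcity nor excess is read from this. The SRSF11 circRNA novel_circ_0001509 was listed in 4 ovariectomized libraries with 23 junction reads in all and in 2 sham libraries with 12. The other, novel_circ_0001510, had 8 reads in 2 libraries of each group. Their pooled ratios were 23.9 and 10.7 junction reads per 1000 non-junction reads, on either side of the 15.2 of SRSF1. Both were under the filter, so SRSF1 was the only SR protein gene tested.

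In the fit of host sums 0 of 753 hosts (0%) passed an adjusted p of 0.05, SRSF1 and the other splicing genes included. Over 6 lists of splicing genes with 63 members, 22 hosted a circRNA and 6 besides SRSF1 were tested. Their estimates were positive for 1 and negative for 5, with a median log2 fold change of -0.20 against -0.02 over all 753 hosts. They ran from -0.56 to 0.31, where SRSF1 was at 1.79. No test of SRSF1 against these genes was made.

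Of the kinases that phosphorylate SR proteins, 5 of 9 hosted a circRNA and 2 were tested. SRPK2, an SR protein kinase, was at -0.56 ± 0.46 and DYRK1A at -0.05 ± 0.27 (SE). Of the transport genes, 2 of 4 were hosts, and the nuclear import receptor gene TNPO1 was at -0.27 ± 0.39. Of the spliceosome factors, 2 of 10 were hosts, SF3B1 and LUC7L3, and none was tested. Limma adjusted p-values were 0.822 for SRPK2, 0.962 for DYRK1A and 0.885 for TNPO1.

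Of the other splicing regulators, 8 of 15 were hosts. HNRNPC, which encodes an RNA-binding protein that packages nascent transcripts, had 41.3 ± 9.43 normalized junction reads in ovariectomized and 57.6 ± 11.97 in sham libraries (SD, n = 5 each). Limma put it at -0.48 ± 0.26 (SE) on the log2 scale, adjusted p = 0.760. Among regulators of muscle splicing and of circRNAs, 3 of 11 were hosts. QKI, whose protein promotes the formation of circRNAs, was at 0.31 ± 0.28, and MBNL1, a splicing regulator of muscle, at -0.13 ± 0.53. Their limma adjusted p-values were 0.823 and 0.949.

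Of 16 genes whose splicing SRSF1 is known to influence, mostly from work in human and mouse cells, 5 hosted a circRNA. LDB3, which encodes a protein of the Z-disc, had 22.1 ± 12.4 normalized junction reads in ovariectomized and 34.8 ± 21.5 in sham libraries (SD, n = 5 each). Its estimate was -0.97 ± 0.72 (SE) on the log2 scale. The insulin receptor gene INSR had 120.1 ± 36.6 in ovariectomized and 118.1 ± 35.5 in sham libraries, and its estimate was 0.03 ± 0.25 (SE). Limma adjusted p-values were 0.806 for LDB3 and 0.976 for INSR.

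**Figure D5:**
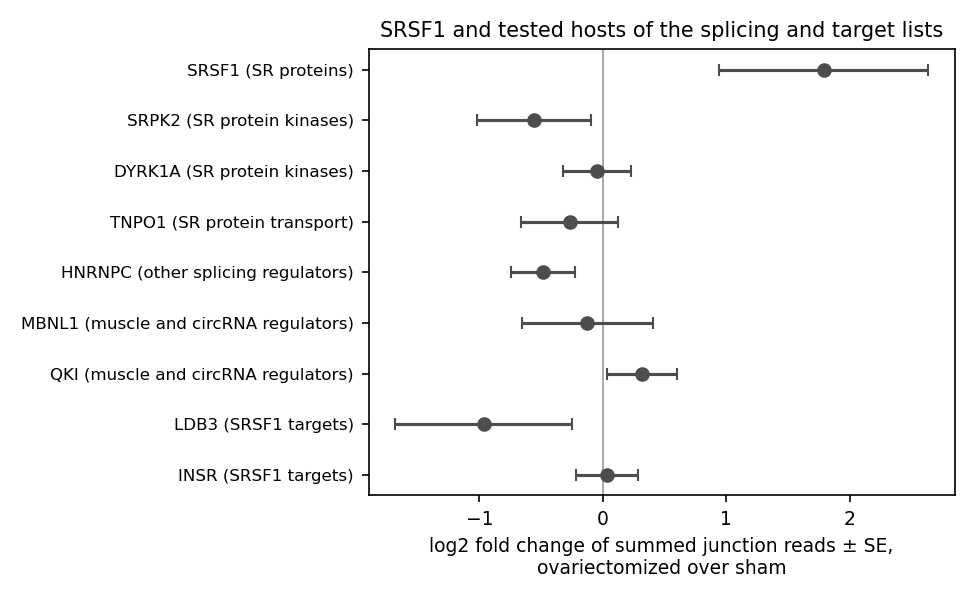
Log2 fold change of summed junction reads, ovariectomized over sham, with its standard error, for SRSF1 and the 8 other hosts that passed the filter, 6 from the lists of splicing genes and 2, LDB3 and INSR, from the list of SRSF1 targets. SRSF1 lies at 1.79 and the others between -0.97 and 0.31.

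The hosts whose junction reads followed those of SRSF1 most closely over the 10 libraries were CHD2, VAPA, LOC105605336, CEMIP2 and PHKB. Likeness was the Pearson correlation of log2 normalized reads plus 1, computed for 752 hosts, with a median of 0.00 and a 95th percentile of 0.55. It was 0.79 for CHD2, which encodes a chromatin remodeller, and 0.78 for VAPA, a gene of membrane contact sites. It was 0.74 for LOC105605336, 0.73 for CEMIP2 and 0.72 for PHKB, which encodes a subunit of phosphorylase kinase. As SRSF1 separates the groups, hosts with a difference between the groups stand high in this order, and the libraries share their scaling factors. CHD2 had 41.7 ± 7.36 normalized junction reads in ovariectomized and 26.5 ± 7.37 in sham libraries (SD, n = 5 each). Its groups overlapped, with 33.2 to 53.4 in ovariectomized libraries, against 18.8 to 36.2 in sham libraries, and its limma adjusted p was 0.760. LOC105605336 had 117 ± 30.4 normalized junction reads in ovariectomized and 49.4 ± 19.1 in sham libraries (SD, n = 5 each). Its groups did not overlap, with 87.6 to 166 in ovariectomized libraries, against 29.1 to 80.2 in sham libraries. The share of all hosts whose groups do not overlap was not counted, and likeness to SRSF1 favours such hosts. Nothing is read from this separation. Limma put it at 1.27 ± 0.27 (SE) on the log2 scale, and its adjusted p of 0.0760 missed the threshold.

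The circRNAs whose median ratio over libraries was closest to that of SRSF1 were those of CAT, TXNL1, RYR1, GET4 and UBE2G1. The median over libraries of the centred log2 ratio was -1.999 for SRSF1, and it ran from -2.18 for novel_circ_0010737 of UBE2G1 to -1.90 for novel_circ_0016341 of GET4. Of these 5, only those of TXNL1 and UBE2G1 were listed in all libraries. The TXNL1 circRNA novel_circ_0016027 had 5.61 to 26.6 junction reads per 1000 non-junction reads in ovariectomized and 10.4 to 17.4 in sham libraries. Its difference of -0.17 in the ratio fit had a limma adjusted p of 0.944, and that of the UBE2G1 circRNA was -0.20 with 0.942. SRSF1 was at 2.22 in the same fit.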

How the data were processed

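The 5 libraries labelled as ovariectomized and 5 as sham were made with a directional kit, per the labels' protocols. The submitters' processing notes name HISAT2. Caller, genome build and annotation of the circRNAs are not given in the sources consulted. The deposited table packs whole-number junction and non-junction read counts into lists by sample name, with 2 reads as the smallest listed junction count. Values under 10 further names that match no series sample were left unused. In the second table the authors give normalized signal as group means, a log2 fold change and p-values before and after adjustment, per the file headers. The gene table of ARS-UI_Ramb_v3.0 placed the hosts of 235 of 235 circRNAs of this sequence on chromosome 11.

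Counts were fitted with limma voom (limma 3.58.1, statmod 1.5.0, R 4.3.3), with trimmed mean of M values scaling (30% of log ratios, 5% of abundances), group as the only term, robust variances and Benjamini-Hochberg adjustment at 0.05. A circRNA or host was tested with at least 10 reads scaled to the median library in at least 5 libraries and 15 reads in all. Normalized reads are counts over the scaled library size, with its geometric mean set to 1. Ratios were fitted with limma on log2 of counts plus 0.5, centred on each library's median. For single values, exact two-sided permutation tests were used. The test planned for the SRSF1 ratio is not reported, since the rule used that ratio. The fit was tested on simulated data.

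The SRSF1 entry, the lists and the tests were chosen with earlier results of these data known. By rule, the text names every SRSF1 circRNA, the 5 hosts and 5 circRNAs most like it, and up to 4 tested members of each list. The numbers in the titles did not pair the libraries by the check used. Alternatives covered scaling, filters, the test, the centring of the ratio, pseudocounts, a replicate block and leaving out each library. No genome was used, so no sequence is shown.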

Additional observations from a re-analysis of the deposited data

Results flagged for a closer look

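Of 16 groups of 5 values examined for a library far from the rest, 4 stood out, all through ovariectomized replicate 5. Chance marks about 1 in 20 such groups. The SRSF1 circRNA had 56.7 junction reads per 1000 non-junction reads there, where the other ovariectomized libraries had 18.0 to 27.2. The circRNA novel_circ_0011145, which shares its 5′ end, had 87.0 there, against 12.7 to 28.9 in the others. The same library held 67061 junction reads in all, against 39045 to 46968, and its median exonic circRNA had 81.1 junction reads per 1000 non-junction reads, against 47.6 to 53.0. Relative to that median, and in normalized junction reads (20.5, where the highest of its group had 23.8), SRSF1 did not stand apart in this library.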

How the results depend on the processing

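In the 73 alternatives for junction reads and ratio, the SRSF1 estimate was above 0 in all 73. These alternatives share the same junction reads and include the ratio that chose the gene. As the groups do not overlap in those reads, leaving out a library could not turn the sign. The tally is therefore no support for the difference. The voom log2 fold change of 1.77 ran from 1.65 to 1.90 over 6 alternatives and from 1.68 to 1.94 when single libraries were left out, and the limma adjusted p stayed above the threshold, at 0.334 or more. With library totals alone the median of all circRNAs moved from -0.04 to 0.14 and the SRSF1 value was 1.90. The looser filter on 5 libraries of 2 or more reads called 4 circRNAs, and 30 were called when all with 1 read were fitted, SRSF1 in neither. The host sum ran from 1.67 to 1.92 over all its alternatives. The difference of 13.1 normalized reads ran from 11.8 to 14.2 without single libraries and was 20.4 with novel_circ_0011145 added. Each had an exact p of 0.00794, the smallest these tests can give, reached whenever the groups do not overlap. That p was fixed by the separation and shows no stability. The log2 ratio difference ran from 2.07 to 2.60 over its settings and from 2.13 to 2.46 without single libraries. With the replicate number as a block, an exact sign-flip test gave p = 0.0625 for the 13.1 reads, the smallest that 5 pairs allow, so it says nothing of their stability. In the block fit the voom estimate was 1.68 (adjusted p = 0.899) with 3 circRNAs called, and the ratio fit gave 2.22. Correlations of same-numbered libraries ran from -0.11 to 0.18, and 2 of 5 ovariectomized libraries correlated best with their own number. Non-junction reads moved from -0.22 to -0.76 with junction-read factors and to -0.46 without scaling, both with an exact p under 0.05. They ran from -0.39 to -0.13 without single libraries, with an exact p of 0.00794 without sham replicate 4. As these reads enter the ratio that chose the gene, each p on them is a description. The cause of the shifts was not tested. The ratio fit ran from 2.05 to 2.34 without single libraries. The share of the leading SRSF1 circRNA was not run, since the gene has 1. Depth limits the sham values most, at 3 to 7 junction reads a library.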

Other observations

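In the fit of the ratio of junction to non-junction reads, the circRNA with the second largest difference was novel_circ_0013745 of ACACB, named after its values were seen. ACACB encodes a muscle form of acetyl-CoA carboxylase, which restrains fatty acid oxidation. Its centred log2 ratio was higher by 1.78 in ovariectomized than in sham libraries, with a limma adjusted p of 0.169. The circRNA novel_circ_0012049 of ATRN followed at 1.58, with a limma adjusted p of 0.380. Of the 4 circRNAs with the smallest p, the 1 with a lower ratio in ovariectomized libraries was novel_circ_0005065 of LOC101117325, at -1.70 with a limma adjusted p of 0.380.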
